A study of Mus musculus with 18 samples.

Results

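A set of 110 genes was selected on the measured 8h and 8h2h changes themselves: their signal was higher in the arrays titled 8h than in those titled 0h, and lower again in those titled 8h2h, in both cell lines of the study. The genes came from 13600 that were read well above background on all 6 arrays titled 8h, out of 15976 genes with a kept probe. Each gene was read from its brightest RefSeq-matched probe, as the log2 of the processed intensity minus the array's 75th percentile, called its level below. A gene was a member if its mean level at 8h exceeded that at 0h by at least 1, and its level at 8h2h was below that at 8h by at least 0.8, in both lines. Symbols starting with Dusp, Spry, Spred, Egr, Fos, Jun, Etv, Ier, Klf, Myc or Ccl were left out. These prefixes cover the best-known early targets of the pathway and its feedback inhibitors. The same thresholds were met by 20 genes of those families, Ccl20, Egr3 and Fosl1 among them.

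The samples were mouse embryonic stem cells of strain 129SV, and all of them, controls included, were labelled as an Esrrb knockout expressing Raf-ErT2, a fusion of Raf that becomes active when 4-hydroxytamoxifen (4OHT) is added. KO-labelled cells carried an empty vector and Rescue-labelled cells an Esrrb transgene. The cells were grown in serum, 1x LIF and 2 uM Chir99021, and for the 24 h before treatment they were kept in serum, LIF and the FGF receptor inhibitor PD173074 at 250 nM. Per the treatment protocol, 0h meant untreated, 8h meant 250 nM 4OHT for 8 h, and 8h2h meant a further 2 h with a Mek inhibitor, named PD03 in the series' design. Each of the 6 groups had 3 arrays, 1 on each of 3 slides (a, b and c). Nothing in the labels says whether the replicates were separate cultures, whether a line was 1 clone, or what drove the transgene, so p-values measure the spread between these arrays only.

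The titles and the source descriptions of the 12 arrays titled 8h or 8h2h disagreed. Arrays titled 8h were described as having had the Mek inhibitor, and those titled 8h2h as having had none. The groups below follow the titles, as the choice of members did, and which treatment an array had was not settled. Esrrb itself averaged 5.61 ± 0.27, 4.35 ± 0.31 and 4.75 ± 0.22 at 0h, 8h and 8h2h in KO-labelled arrays (SD, n = 3, 3 and 2). The Rescue-labelled arrays averaged 4.98 ± 0.39, 2.50 ± 0.21 and 2.21 ± 0.13 (SD, n = 3 each). It was thus higher in the KO-labelled arrays at each time, by 0.63 (SE 0.21), 1.85 (SE 0.21) and 2.55 (SE 0.24), with limma's adjusted p of 0.041, 2.4e-05 and 6.7e-06. Where the probe lies relative to the deleted part is not known here, and every direction between the lines rests on the labels as given. Replicate b of the KO-labelled 8h2h group differed from the rest and did not enter the means. On it 89.1% of probes were well above background, against 49.0% to 65.4% on the other 17 arrays. Of these, KO-labelled arrays had 49.0% to 58.3% and Rescue-labelled arrays 55.6% to 65.4%. Each KO-labelled array had a lower share than the Rescue-labelled array of its slide and time. The part of this in how many members were unread in KO-labelled arrays was not tested. The 10 stem cell markers, Pou5f1, Sox2 and Nanog among them, were read on all 17 arrays. Of 9 fibroblast markers, 2 were read on all 17 and Lum on none. Their summed level was 4.51 to 5.01 at 8h and 1.73 to 2.02 at 0h in KO-labelled arrays, and 3.30 to 3.54 at 8h and 1.68 to 1.90 at 0h in Rescue-labelled arrays, so it moved with the 8h increase. At 8h2h it was 4.31 to 4.50 and 2.91 to 3.11. Their part in the result was not tested, and in such bulk samples more cells of a type and more RNA per cell cannot be told apart.

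Raf activates Mek, which activates the kinase Erk. Erk phosphorylates transcription factors that switch on a first wave of short-lived mRNAs, whose products include further transcription factors, mRNA decay proteins, growth factors and inhibitors of the pathway itself. Because such mRNAs decay fast, their levels can follow pathway activity in both directions. In mouse embryonic stem cells, Erk signalling downstream of FGF4 accompanies exit from the naive state.

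The 8h increase (8h minus 0h) had a median of 2.53 over the 110 members in KO-labelled arrays, with a range of 1.00 to 7.91. In Rescue-labelled arrays its median was 2.39, with a range of 1.02 to 6.26. For members not well above background at 0h, the measured 0h value entered these figures as it stood. The 8h2h decrease (8h2h minus 8h) had a median of -1.45 in KO-labelled arrays and -1.34 in Rescue-labelled arrays. Over all 15976 genes the medians of these 4 changes lay between -0.04 and 0.00. These changes chose the members, so they are given as a description and no test of them is offered. Across all genes, limma called 15.3% higher and 16% lower at 8h than at 0h in KO-labelled arrays, and 16.2% higher and 18.9% lower in Rescue-labelled arrays. Between 8h2h and 8h, it called 3.4% higher and 2.5% lower in KO-labelled arrays, and 2.27% higher and 2.2% lower in Rescue-labelled arrays. Genes just inside the 4 thresholds were Grhl3 (KO-labelled increase 1.00), Zbtb10 (Rescue-labelled increase 1.02), Insyn2a (KO-labelled decrease -0.80) and Cyp2b9 (Rescue-labelled decrease -0.80). Just outside stood D16Ertd472e at 0.86, Gbx1 at 0.99, St8sia4 at -0.79 and Mfap3l at -0.78 on the same changes.

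**Figure D1:**
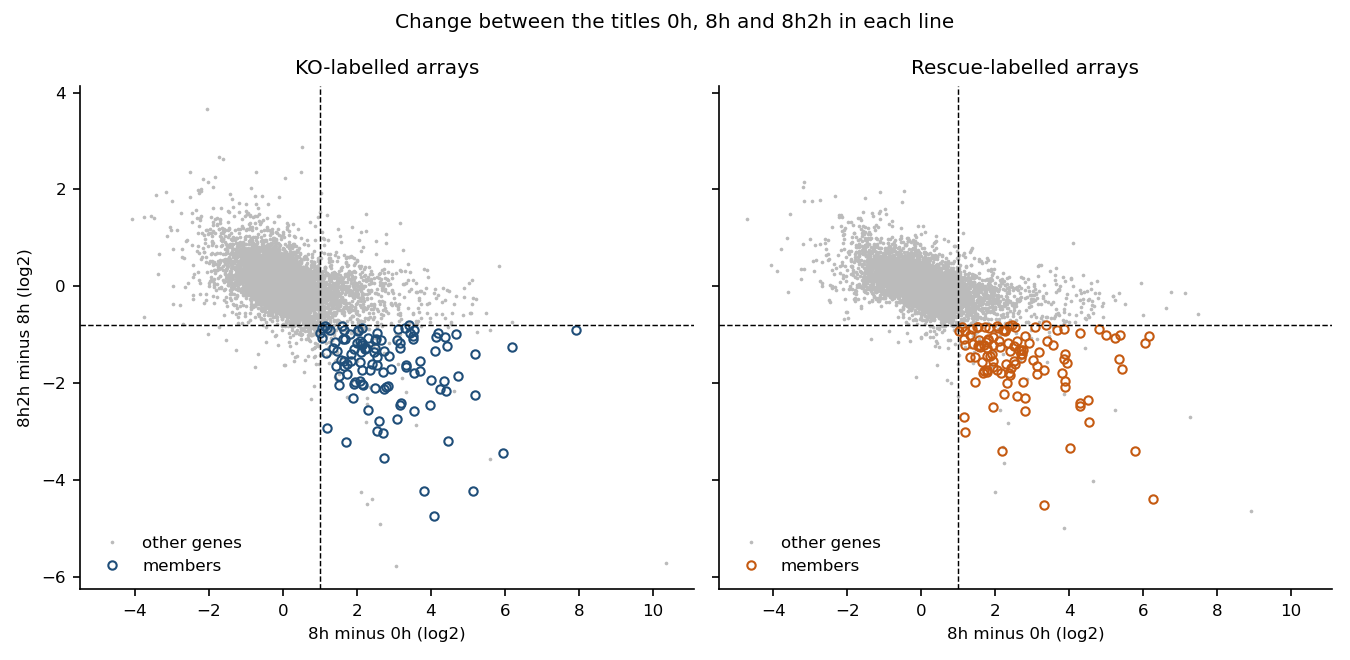
Change from 0h to 8h (x axis, log2) against the change from 8h to 8h2h (y axis, log2) for the 13600 genes read at 8h, in KO-labelled arrays (left) and Rescue-labelled arrays (right). Dashed lines mark the thresholds of 1 and -0.8. The 110 members, drawn as rings, lie to the lower right of both lines by the way they were chosen.

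The members did not return to the 0h level alike. At 0h, 28 members were not well above background on any KO-labelled array and 19 on any Rescue-labelled array, so their increase is only a lower bound. The share of the 8h increase that was gone at 8h2h is therefore summarised over members read at both 0h and 8h2h in the line. Here and below it is a share of the log2 change, not of the intensity gained. Over 79 such members in KO-labelled arrays its median was 65.0%, with a range of 22.9% to 248%, and over 91 in Rescue-labelled arrays it was 61.8%, with a range of 18.4% to 254%. Of the 78 members read at these times in both lines, 19 were still at least 1 above 0h in both lines at 8h2h, and in 43 every 8h2h array lay above every 0h array in both lines. In contrast, 6 of the 78 were below their 0h mean in both lines (Pmaip1, Gbx2, Noct, Evx1, Enc1 and Epha2), and for 2 of them, Epha2 and Gbx2, no 8h2h array reached any 0h array. By roles assigned by hand after the members were known, the 3 RNA decay genes had lost a median of 104% of the increase in KO-labelled arrays and 98.4% in Rescue-labelled arrays. The transcription factors and coregulators had lost 76.2% (21 of 27 read) and 72.8% (24 read). The surface receptors, adhesion proteins and channels had lost 39.8% (12 of 16 read) and 55.3% (15 read). Medians of the remaining roles ran from 56.7% to 71.6% in KO-labelled arrays and from 54.2% to 73.8% in Rescue-labelled arrays. The receptor group was thus lowest in KO-labelled arrays only.

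**Figure D2:**
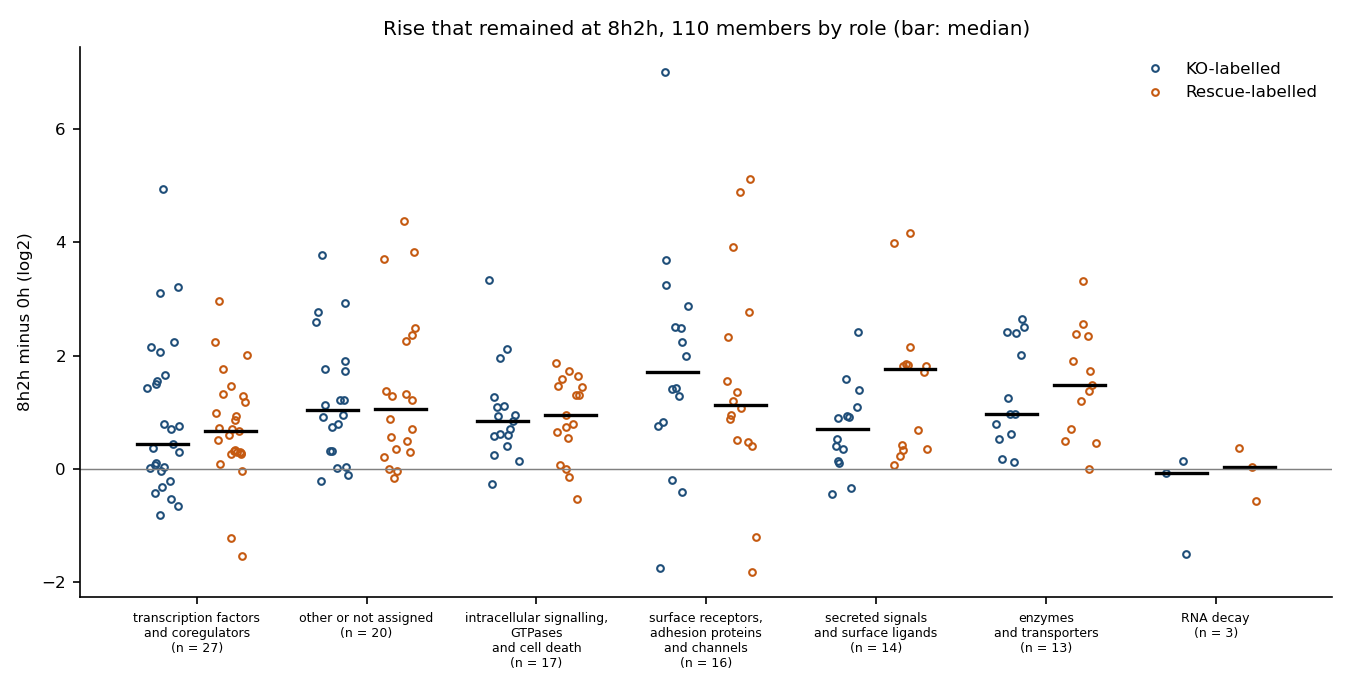
Level at 8h2h minus level at 0h (y axis, log2) for each of the 110 members, by role (x axis) and by labelled line; each ring is a member and each bar a median. Members not well above background at 0h are drawn at their measured difference. The RNA decay genes sit at or below 0 apart from small remainders, and the receptor group spreads widest in KO-labelled arrays.

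Promoter sequences were at hand for 76 of the 110 members in RefSeq's table (build GRCm38.p6, 250 bases before to 50 after the start). This is under 80% of the members, so a comparison of motif shares between members and other genes is void and none is made. Both strands were searched for 8 motifs. The cAMP response element TGACGTCA stood in the promoters of 6 members (1.79% of all 32851 promoters in the table hold it). The AP-1 motif TGACTCA stood in 5 (5.20% of all promoters), and the CArG box, the site named for serum response factor, in 3 (1.63%). The EGR motif GCGTGGGCG stood in 2 (0.612%), TATAAA in 9 (13.6%), the E-box CACGTG in 12 (7.15%), the ETS motif CCGGAAGT in 1 (3.89%) and the NF-kB motif in none (0.195%). The counts are of genes and these shares are of promoters over the whole table, so the measures are unlike. Of the 10832 genes read at 8h with a promoter, 3.554%, 4.505%, 1.708%, 1.376%, 9.675%, 11.46%, 8.549% and 0.2677% held these motifs, in the order given. The 110 bases before the start are given for 6 members, chosen after the search because a motif lay close to the start, so that its place can be seen. They run 5′ to 3′ along the gene's strand, in lower case with motifs in capitals. A match describes letters only. The stretches are chr5:91139489-91139598 (plus strand) for Areg, chr4:141301111-141301220 (plus) for Epha2, chr15:79347410-79347519 (plus) for Maff, chr7:28379229-28379338 (minus) for Zfp36, chr7:24462373-24462482 (plus) for Plaur and chr9:119983024-119983133 (minus) for Csrnp1. Csrnp1 has 4 promoters in the table and Maff 3, and the one with the motif is shown.
Areg: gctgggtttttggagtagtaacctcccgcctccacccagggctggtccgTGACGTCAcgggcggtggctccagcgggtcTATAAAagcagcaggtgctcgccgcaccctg
Epha2: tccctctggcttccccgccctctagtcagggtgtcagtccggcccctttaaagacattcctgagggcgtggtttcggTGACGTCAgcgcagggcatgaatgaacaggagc
Maff: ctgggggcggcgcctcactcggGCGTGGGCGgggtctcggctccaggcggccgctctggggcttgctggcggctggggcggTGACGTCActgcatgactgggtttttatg
Zfp36: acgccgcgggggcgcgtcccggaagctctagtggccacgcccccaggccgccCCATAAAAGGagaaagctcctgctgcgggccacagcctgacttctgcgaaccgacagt
Plaur: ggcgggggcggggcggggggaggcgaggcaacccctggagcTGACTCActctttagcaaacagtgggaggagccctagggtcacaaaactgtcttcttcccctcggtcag
Csrnp1: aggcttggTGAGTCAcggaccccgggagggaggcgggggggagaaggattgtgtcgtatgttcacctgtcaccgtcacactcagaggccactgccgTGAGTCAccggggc
In Areg the cAMP response element ends 54 bases before the start, and TATAAA follows it. In Epha2 the element lies 33 to 26 bases before the start, and in Maff 29 to 22, with the EGR motif further upstream. The CArG box of Zfp36 lies 58 to 49 bases before the start. Plaur holds 1 AP-1 motif, and Csrnp1 holds 2, both read on the opposite strand.

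Among the 14 secreted signals and surface ligands were all 3 members of the EGF family list, Hbegf, Areg and Ereg, which bind and activate the EGF receptor or its relatives. Hbegf had levels of 1.20, 0.73 and 1.11 at 0h, 3.90, 3.16 and 3.62 at 8h, and 0.68 and 0.47 at 8h2h in KO-labelled arrays. In Rescue-labelled arrays it had 0.34, 0.59 and 1.15 at 0h, 3.41, 3.55 and 3.54 at 8h, and 0.76, 0.94 and 1.08 at 8h2h. The 8h arrays stood clear of the others in both lines, and both KO-labelled 8h2h arrays lay below all KO-labelled 0h arrays. The decrease from 8h to 8h2h was -2.99 (SE 0.24) in KO-labelled arrays and -2.57 (SE 0.21) in Rescue-labelled arrays. Areg, whose promoter is shown above, was not well above background at 0h in either line. It had levels of -4.46, -3.58 and -3.73 at 8h in KO-labelled arrays and -1.87, -1.86 and -1.72 in Rescue-labelled arrays. In the Rescue-labelled arrays its 8h intensity was at least 7.81-fold that at 0h. No such bound could be given for KO-labelled arrays, where its mean 8h level of -3.92 was too near background. Areg was unread at 8h2h there as well, so both its KO-labelled changes rest on values not well above background. Ereg lies next to Areg on chromosome 5 with no other protein-coding gene between them. It too was unread at 0h, and was at least 1.20-fold higher at 8h in KO-labelled arrays and at least 4.92-fold higher in Rescue-labelled arrays.

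Nppb, which encodes B-type natriuretic peptide, swung widely. Its levels were -2.06, -2.32 and -1.84 at 0h, 2.76, 2.94 and 3.47 at 8h, and -1.22 and -1.12 at 8h2h in KO-labelled arrays. In Rescue-labelled arrays they were -1.66, -0.68 and -1.71, then 4.53, 5.20 and 4.99, then 0.20, 0.74 and 0.58. Its 8h increase was 5.13 (SE 0.28) in KO-labelled arrays and 6.26 (SE 0.28) in Rescue-labelled arrays, and at 8h2h it stayed 0.90 and 1.86 above 0h. Bmp4 encodes a ligand of the TGF-beta superfamily. Its levels were 2.82, 2.57 and 2.74 at 0h, 5.88, 4.88 and 5.47 at 8h, and 2.55 and 2.20 at 8h2h in KO-labelled arrays. In Rescue-labelled arrays they were 1.35, 1.10 and 1.36, then 3.27, 2.72 and 2.71, then 1.64, 1.05 and 1.33. The 8h arrays were highest in both lines. The 8h2h arrays lay just below all 0h arrays in the KO-labelled line and on either side of them in the Rescue-labelled line. Il11, an IL-6 family cytokine, was 2.69 (SE 0.28) higher at 8h than at 0h in KO-labelled arrays and 4.50 (SE 0.28) higher in Rescue-labelled arrays. Sost, an inhibitor of Wnt signalling, was unread at 0h and at least 2.17-fold and 4.46-fold higher at 8h. The opioid precursor Pdyn lost 38.1% of its increase in KO-labelled arrays and 20.2% in Rescue-labelled arrays. The semaphorin Sema6d was unread at 0h in both lines, so that it lost at most 58.5% and 25.7%.

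The 16 receptors, adhesion proteins and channels held both extremes of return. Epha2, a receptor tyrosine kinase for ephrin-A ligands, had levels of 3.88, 3.83 and 3.85 at 0h, 5.09, 4.63 and 5.40 at 8h, and 1.96 and 2.24 at 8h2h in KO-labelled arrays. In Rescue-labelled arrays it had 3.49, 3.69 and 3.98, then 4.80, 5.01 and 4.90, then 1.51, 2.09 and 2.08. No 8h2h array came within 1 unit of any 0h array of its line, and Epha2 ended 1.75 below 0h in KO-labelled arrays and 1.82 below in Rescue-labelled arrays (8h2h minus 0h of -1.75 and -1.82). Ptger2, a prostaglandin E2 receptor, was unread on both KO-labelled 8h2h arrays, at least 8.93-fold lower than at 8h.

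At the other end, Grm6, a metabotropic glutamate receptor, had levels of 1.70, 1.88 and 2.13 at 8h and 0.83 and 1.16 at 8h2h in KO-labelled arrays, where it was unread at 0h. It was at least 54.3-fold higher at 8h than at 0h there. In Rescue-labelled arrays its levels were -4.27, -4.42 and -4.08 at 0h, 1.61, 1.88 and 1.88 at 8h, and 0.34, 0.94 and 0.60 at 8h2h. The 8h2h arrays were below the 8h arrays in both lines but stayed far above 0h. The orphan receptor Gpr142 and Kdr, the main VEGF receptor of endothelium, were also still high at 8h2h. Kdr had lost 22.9% of the log2 increase in KO-labelled arrays and 18.4% in Rescue-labelled arrays, and Gpr142, unread at 0h in both lines, at most 34.9% and 23.8%. In intensity, Kdr decreased 1.95-fold and 1.84-fold after increases of 18.4-fold and 27.8-fold. Plaur, the urokinase receptor, was between these ends. Its levels were 2.93, 3.03 and 2.90 at 0h, 5.83, 5.57 and 6.08 at 8h, and 4.35 and 4.41 at 8h2h in KO-labelled arrays. In Rescue-labelled arrays they were 3.29, 3.74 and 4.18, then 6.28, 6.54 and 6.45, then 4.74, 5.01 and 5.03, so the 8h2h arrays lay between the other groups in both lines. Thbd, the anticoagulant receptor thrombomodulin, and Esam, an adhesion molecule of endothelium, are taken up with the comparison of the lines.

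**Figure D3:**
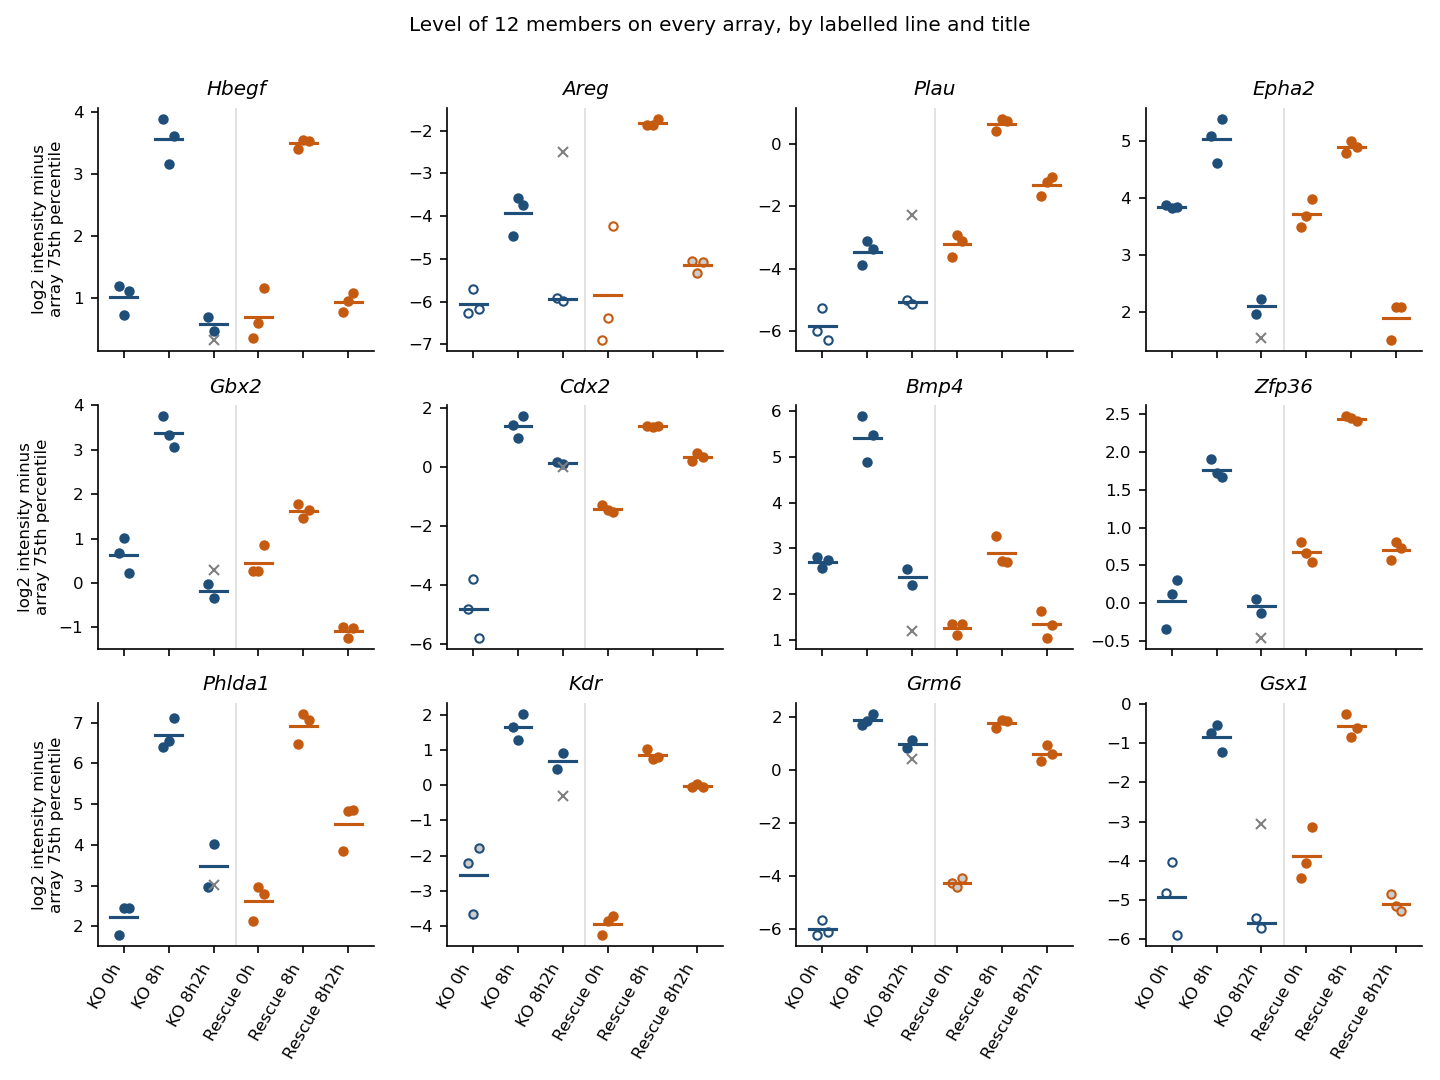
Level (y axis, log2 intensity minus the array's 75th percentile) of 12 members on every array, KO-labelled arrays in blue and Rescue-labelled arrays in orange, at 0h, 8h and 8h2h. Bars are means. Filled points belong to groups in which every array was well above background, open points to groups in which none was, and grey-filled points to groups in which some were; the cross is KO-labelled 8h2h replicate b, which did not enter the means. Epha2 and Gbx2 end below their 0h level in both lines, while Grm6 and Kdr keep most of the increase on the log2 scale.

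Of 17 intracellular signalling, GTPase and cell death genes, Phlda1 encodes a pleckstrin homology-like protein. Its levels were 1.78, 2.44 and 2.44 at 0h, 6.41, 6.56 and 7.11 at 8h, and 2.97 and 4.01 at 8h2h in KO-labelled arrays. In Rescue-labelled arrays they were 2.14, 2.96 and 2.80, then 6.48, 7.21 and 7.06, then 3.84, 4.83 and 4.85. The 8h2h arrays stayed above the 0h arrays in both lines, by a mean of 1.27 and 1.87. The death genes Bcl2l11 (Bim) and Pmaip1 (Noxa) are both BH3-only members of the Bcl-2 family. Bcl2l11 stayed 0.61 above 0h in KO-labelled arrays and 0.55 in Rescue-labelled arrays, whereas Pmaip1 ended below it at -0.27 and -0.14. The Bcl2l11 values are from its brightest probe, with 8h2h decreases of -2.13 and -1.84. Its other probes had smaller decreases of -1.13, -0.99 and -0.96 in KO-labelled arrays and -0.62, -0.43 and -0.58 in Rescue-labelled arrays. None of these other probes met the thresholds, so the extent of the return of Bcl2l11 depends on the probe. Arc, an activity-regulated cytoskeletal protein known from neurons, had levels of 3.36, 3.10 and 3.32 at 0h, 5.59, 5.08 and 5.50 at 8h, and 3.67 and 3.63 at 8h2h in KO-labelled arrays. Its 8h increase was 2.13 (SE 0.15) in KO-labelled arrays and 2.76 (SE 0.15) in Rescue-labelled arrays. The pseudokinase Trib1 lost 73.7% and 51.7% of its increase, and the polo-like kinase Plk3 65.0% and 56.7%. The RGK-family GTPases Gem and Rrad and the Ras-like Rasl11a had 8h2h decreases between -1.75 and -0.80.

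The 27 transcription factors and coregulators included several homeobox genes of early patterning. Gsx1 had levels of -0.74, -0.55 and -1.23 at 8h in KO-labelled arrays, where it was unread at 0h and at 8h2h. It was at least 8.11-fold higher at 8h than at 0h and at least 8.81-fold lower at 8h2h than at 8h there. In Rescue-labelled arrays its levels were -4.44, -4.05 and -3.14 at 0h, -0.26, -0.85 and -0.61 at 8h, and -4.85, -5.15 and -5.28 at 8h2h, a decrease of -4.52 (SE 0.40). Only the 8h arrays were high. Gbx2, a homeobox factor that has been linked to naive pluripotency downstream of LIF, had levels of 0.68, 1.01 and 0.23 at 0h, 3.75, 3.33 and 3.06 at 8h, and -0.02 and -0.34 at 8h2h in KO-labelled arrays. Rescue-labelled arrays had 0.26, 0.26 and 0.86, then 1.77, 1.46 and 1.64, then -0.99, -1.23 and -1.01. Every 8h2h array lay below every 0h array of its line.

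Cdx2, the trophectoderm and posterior patterning factor, was unread at 0h in KO-labelled arrays, where it had levels of 1.43, 1.00 and 1.72 at 8h and 0.16 and 0.10 at 8h2h. It was at least 38.0-fold higher at 8h than at 0h there. In Rescue-labelled arrays it had -1.28, -1.45 and -1.52 at 0h, 1.40, 1.35 and 1.39 at 8h, and 0.22, 0.48 and 0.34 at 8h2h. The lines thus differed at 0h, before they reached overlapping levels at 8h, and at most 23.9% of the increase was lost in KO-labelled arrays and 37.1% in Rescue-labelled arrays. Trophoblast markers, Cdx2 among them, had a summed level of 3.29 to 3.57 at 8h and 2.29 to 3.41 at 0h in KO-labelled arrays, and 5.16 to 5.31 at 8h and 4.92 to 5.15 at 0h in Rescue-labelled arrays. Pou4f2 lost 41.9% of its increase in KO-labelled arrays and 47.0% in Rescue-labelled arrays. The Snail-family gene Snai3, unread at 0h in KO-labelled arrays, lost at most 33.5% there and 23.0% in Rescue-labelled arrays. Csrnp1, whose promoter is shown above and which encodes a nuclear protein, had levels of 3.13, 3.26 and 3.08 at 0h, 4.92, 5.09 and 5.12 at 8h, and 2.75 and 2.71 at 8h2h in KO-labelled arrays. In Rescue-labelled arrays it had 3.61, 3.79 and 3.57, then 5.54, 5.62 and 5.59, then 3.84, 3.96 and 3.97. Csrnp1 ended below 0h on the KO-labelled arrays and above it on the Rescue-labelled arrays. Maff, a small Maf factor, and Nab2, a corepressor of Egr proteins, had lost 93.8% and 71.2% of the increase in KO-labelled arrays and 52.0% and 43.4% in Rescue-labelled arrays.

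The 3 RNA decay genes were Zfp36 and Zfp36l2, which bind AU-rich elements and promote mRNA decay, and Noct, which encodes nocturnin, a protein of the deadenylase family. Zfp36 had levels of -0.34, 0.13 and 0.31 at 0h, 1.91, 1.72 and 1.66 at 8h, and 0.05 and -0.13 at 8h2h in KO-labelled arrays. Rescue-labelled arrays had 0.82, 0.66 and 0.54, then 2.47, 2.44 and 2.40, then 0.57, 0.81 and 0.73. The 8h2h arrays lay within the range of the 0h arrays in both lines, and all 8h arrays lay above it. Noct ended at -1.51 relative to 0h in KO-labelled arrays and -0.56 in Rescue-labelled arrays, after 8h increases of 1.71 and 1.94.

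Among the 13 enzymes and transporters was Cyp26a1, which degrades retinoic acid. It was unread at 0h in KO-labelled arrays, where it had 1.85, 1.89 and 1.93 at 8h and -1.48 and -1.64 at 8h2h. In Rescue-labelled arrays its levels were -2.23, -2.48 and -2.36 at 0h, 3.62, 3.55 and 3.13 at 8h, and -0.01, 0.16 and -0.08 at 8h2h. The 8h level was at least 49.9-fold above 0h in KO-labelled arrays and 55.3-fold above it in Rescue-labelled arrays, and at most 61.2% of the increase was lost in KO-labelled arrays and 58.9% in Rescue-labelled arrays. The heparan sulfate sulfotransferases Hs3st3b1 and Hs3st3a1, whose sequences are much alike, were both members. Hs3st3b1 lost 72.7% of its increase in KO-labelled arrays and 61.8% in Rescue-labelled arrays, and Hs3st3a1, unread at 0h in both lines, at most 60.5% and 34.0%; whether their probes can tell the copies apart was not tested. Ptgs2, which encodes the inducible cyclooxygenase, lost 46.0% and 54.6%. Plau, the urokinase, is described below. Of the 20 members with other or no assigned roles, Filip1l was at least 9.85-fold higher at 8h than at 0h in KO-labelled arrays and 6.24-fold higher in Rescue-labelled arrays.

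The difference between the lines was not itself a condition of the choice, although both had to pass the same thresholds. At 0h, limma called 32 of the 110 members lower in KO-labelled arrays and 24 higher, against 15.7% and 10.3% of all genes. Of the 24 higher calls, 6 were of members read in neither line, which leaves 18. At 8h, 31 were called lower and 21 higher, against 16.4% and 12.6% of all genes. At 8h2h, 30 were called lower and 20 higher, against 14.9% and 11.9%, and 2 of the higher ones were read in neither line. Calls at all 3 times in 1 direction were made for 19 members lower in KO-labelled arrays and for 8 higher, while 36 members were called at no time. How many of all genes were called at all 3 times or at none was not counted. These counts thus have no background to be read against. The calls rest on these same arrays, and within slides the sign was shared by all 3 slides for 52 of 56 called members at 0h and 52 of 52 at 8h, and by both usable slides for 50 of 50 at 8h2h. The 4 exceptions at 0h were Snai3, Rrad, Barhl2 and Dleu7, whose arrays also overlapped, as did those of Cass4. With the slide as a block, 60, 55 and 53 members were called at 0h, 8h and 8h2h, against 30.5%, 34% and 29.8% of all genes. 

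Plau had the largest difference between the lines at 8h. By measured values it also had the largest at 8h2h, while at 0h Cdx2, Pdyn and Msx1 differed more. In KO-labelled arrays Plau was unread at 0h and at 8h2h, and Cdx2 at 0h. Their ranks at those times thus rest on values not well above background, which give bounds only. The KO-labelled 8h levels of Plau were -3.88, -3.12 and -3.37. In Rescue-labelled arrays Plau had -3.63, -2.94 and -3.11 at 0h, 0.41, 0.81 and 0.73 at 8h, and -1.68, -1.21 and -1.06 at 8h2h. No KO-labelled array reached a Rescue-labelled array of the same time. At 8h the difference was -4.11 (SE 0.27, limma adjusted p = 4.95e-07), and it was -4.29, -3.93 and -4.10 on slides a, b and c. At 8h2h, Plau was at least 6.34-fold higher in Rescue-labelled arrays (adjusted p = 3.4e-06). Plaur, its receptor, was lower in KO-labelled arrays by smaller amounts, with differences of -0.78 (SE 0.19, adjusted p = 0.0075) at 0h and -0.59 (adjusted p = 0.029) at 8h.

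Other members lower in KO-labelled arrays at all 3 times were Zbtb10, a zinc finger factor, Msx1, a homeobox factor, and Il11. Zbtb10 was lower by -2.28, -2.14 and -2.59 at 0h, 8h and 8h2h (KO minus Rescue, SE 0.21 to 0.24). Msx1 had KO-labelled levels of 2.14, 2.43 and 2.40 at 8h against Rescue-labelled levels of 4.23, 3.98 and 3.67, with a difference of -1.64 (adjusted p = 0.00027). Il11 had KO-labelled levels of -1.28, -1.03 and -0.08 at 8h against Rescue-labelled levels of 1.72, 1.95 and 1.83, a difference of -2.63 (adjusted p = 1.3e-05). For each, the arrays of the lines did not overlap. Thbd was lower at all 3 times too. Its KO-labelled arrays were unread at 0h and at 8h2h, and it was at least 1.27-fold and 1.96-fold higher in Rescue-labelled arrays at these times. Cebpd, Csrnp1, Zfp36, Zfp36l2, Pmaip1, Plk3, Rrad, Lpo, Cyp26a1 and Gata6 were also called lower in KO-labelled arrays at each time.

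Members called higher in KO-labelled arrays at all 3 times included Bmp4, Mgat4c, an N-glycan branching enzyme family member, and Teddm3. Bmp4 was higher by 1.44 (SE 0.23) at 0h, 2.51 (SE 0.23) at 8h and 1.03 (SE 0.26) at 8h2h, with adjusted p of 0.00051, 4.9e-06 and 0.0097. On the slides its 8h difference was 2.61, 2.15 and 2.76. Teddm3 was higher by 2.39, 2.94 and 3.03. Its KO-labelled 8h levels were 0.63, -0.17 and 1.41, against -2.67, -2.23 and -2.05 in Rescue-labelled arrays, with no overlap. Rerg, Rapgef3 and Fjx1 were also higher at each time.

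**Figure D4:**
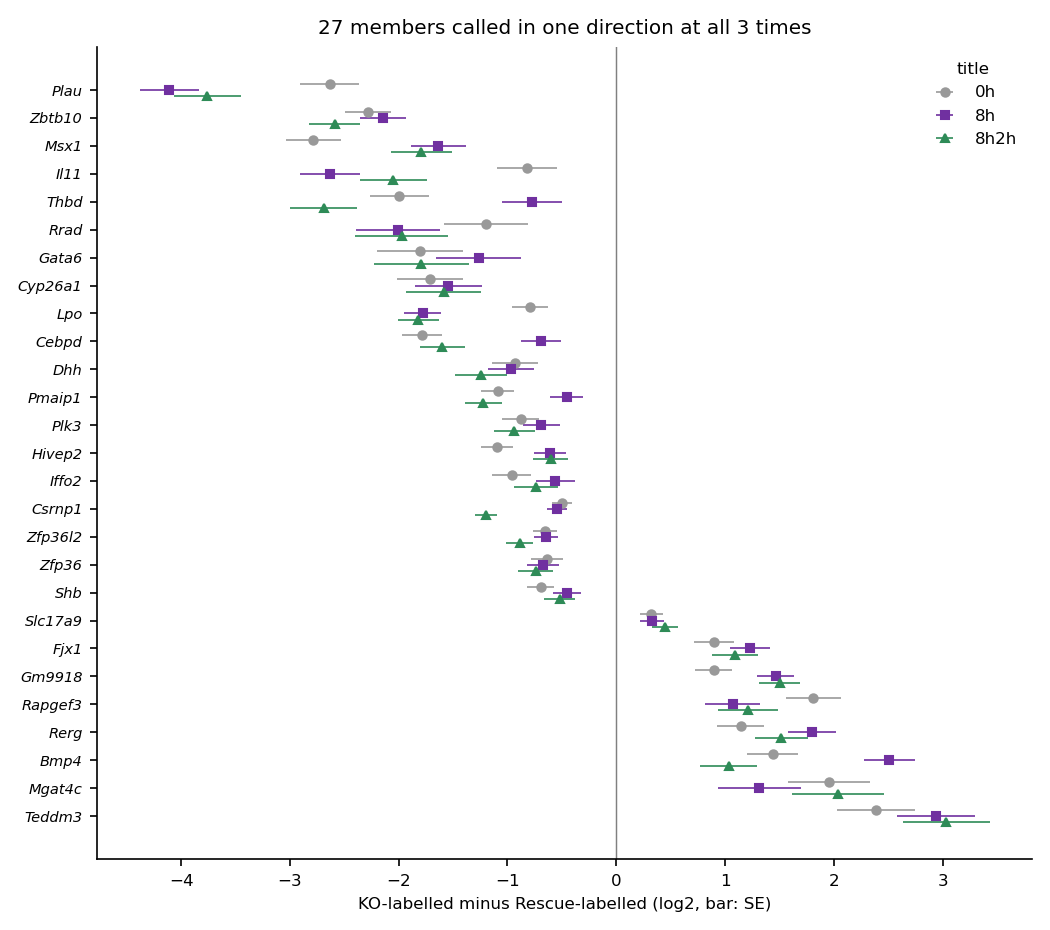
Difference between KO-labelled and Rescue-labelled arrays (x axis, log2, KO minus Rescue, bars are SE) for the 27 members that limma called in 1 direction at 0h, 8h and 8h2h. Where a line was not well above background, as KO-labelled Plau and Thbd at 0h and 8h2h, the measured difference is drawn. The 19 at the top are lower in KO-labelled arrays, with Plau the farthest at 8h, and the 8 at the bottom are higher, with Teddm3 and Bmp4 the farthest at 8h.

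The 8h increase itself differed between the lines for 28 members, 13 with a larger increase in KO-labelled arrays and 15 with a smaller one, against 2.19% and 2.59% of all genes. The members were chosen by these same increases. Large increases leave more room for the lines to differ, while the common floor on the increase limits it. The counts beside the shares of all genes are therefore a description only. In 18 of the 28, 9 in each direction, all 4 groups concerned were read on at least 1 array. On all 3 slides, from which the calls were made, the sign was shared for 28 of 28. With the slide as a block, 31 members were called, against 6.3% of all genes. Without scaling between arrays, 7 members had a larger increase and 2 a smaller one. In that setting 0.945% of all genes were called, 21.85% of them with a larger increase. Skor1, a Ski-family corepressor, had KO-labelled levels of 2.44, 2.14 and 2.41 at 8h and -2.28, -1.48 and -2.48 at 0h, against Rescue-labelled levels of 0.63, 0.83 and 0.75 at 8h and -0.88, -0.97 and -0.57 at 0h. It was below the Rescue-labelled arrays at 0h and above them at 8h, and its increase was larger by 2.86 (adjusted p = 0.00016). Cdc42ep1, an effector of the GTPase Cdc42, crossed over in the same way, with an increase larger by 2.16 (adjusted p = 0.00017). Its KO-labelled levels were 1.80, 1.46 and 2.03 at 8h and -2.60, -2.41 and -2.85 at 0h, against Rescue-labelled levels of 1.11, 0.96 and 1.06 at 8h and -0.98, -1.24 and -1.30 at 0h. Both were called lower at 0h and higher at 8h.

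Esam had KO-labelled levels of 1.10, 1.09 and 1.07 at 8h and -4.17, -2.95 and -3.81 at 0h, against Rescue-labelled levels of 1.33, 0.90 and 1.05 at 8h and -1.57, -1.54 and -0.82 at 0h. The lines overlapped at 8h and not at 0h, and the increase was larger by 2.33 in KO-labelled arrays (adjusted p = 0.0027). Pdyn went the other way. Its KO-labelled levels were 0.74, 0.08 and 1.15 at 8h and -1.34, -1.57 and -2.79 at 0h, against Rescue-labelled levels of 0.34, 0.21 and 0.01 at 8h and -4.58, -4.81 and -5.05 at 0h. Its increase was smaller by 2.45 in KO-labelled arrays (line difference -2.45, adjusted p = 0.0088). Among genes of the early response lists, Il11, Maff and Nab2 had smaller increases in KO-labelled arrays (line differences of -1.81, -1.04 and -1.30), and Cebpd a larger one (1.09). The 8h2h decrease differed between the lines for 0 members in limma at an adjusted p below 0.05, with a lowest adjusted p of 0.19, and 10 members had an unadjusted p below 0.05. With the slide as a block 1 member, Bmp4, was called, with a line difference of -1.61 (limma adjusted p = 0.013). In the fit without the block, 0.0501% of all genes were called higher and 0.0% lower. With the block, 0.106% of all genes were called, 76.47% of them higher. With 2 KO-labelled 8h2h arrays, and a decrease of at least 0.8 in both lines by choice, this does not show that the lines came back alike.

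Other genes of the early response were taken from 6 lists. Beside them, 15.3% of all genes were called higher and 16% lower at 8h in KO-labelled arrays. In Rescue-labelled arrays these shares were 16.2% and 18.9%. At 8h2h against 8h, 3.4% of all genes were called higher and 2.5% lower in KO-labelled arrays, and 2.27% and 2.2% in Rescue-labelled arrays. In the EGF family list, 13 of 15 genes were tested and 3 were members. Of the 10 others, limma called 2 higher and 3 lower at 8h than at 0h in KO-labelled arrays and 3 higher and 2 lower in Rescue-labelled arrays. Errfi1, an inhibitor of the EGF receptor, had increases of 0.83 and 1.95 in the KO-labelled and Rescue-labelled arrays. Its 8h2h changes were -0.58 and -1.34, of which the latter was called. In the list of early transcription factors outside the left-out families, 8 of 47 tested genes were members. Of the 39 others, 14 were called higher and 8 lower at 8h in KO-labelled arrays, and 11 higher and 6 lower in Rescue-labelled arrays. At 8h2h against 8h, 7 and 8 of these 39 were called lower and 5 and 4 higher. Runx1, T and Hmga2 had 8h increases of 3.12, 2.91 and 2.62 in KO-labelled arrays and 4.54, 3.05 and 4.09 in Rescue-labelled arrays. They were not called between 8h2h and 8h in either line. Zfp36l1 had 8h2h changes of -2.05 and -2.27, called in both lines, after increases of 0.85 and 0.985 that were under the threshold.

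In the list of cytokines and secreted signals, 4 of 38 tested genes were members. Of the 34 others, 13 were called higher and 7 lower at 8h in KO-labelled arrays, and 10 and 10 in Rescue-labelled arrays. Vgf, a secreted neuropeptide precursor, had 8h increases of 4.62 and 4.05 but 8h2h changes of -0.37 and -0.30, which were not called. At 8h2h against 8h, 6 of the 34 were called lower and 4 higher in KO-labelled arrays, and 4 lower and 4 higher in Rescue-labelled arrays. Among signalling regulators and survival genes, 10 of 51 tested genes were members, and of the 41 others 10 were called higher and 18 lower at 8h in KO-labelled arrays, and 12 and 13 in Rescue-labelled arrays. At 8h2h against 8h, 4 of the 41 were called lower and 8 higher in KO-labelled arrays, and 4 lower and 3 higher in Rescue-labelled arrays. Pim1 had 8h2h changes of -1.43 and -2.00 after increases of 0.67 and 0.80. The cytoskeleton and adhesion list held no members among 27 tested genes. There, 14 were called higher and 2 lower at 8h in KO-labelled arrays and 15 higher in Rescue-labelled arrays, and the median 8h2h changes were -0.06 and -0.03. The metabolism and transport list of 19 tested genes held none either. At 8h, 8 were called higher and 1 lower in KO-labelled arrays and 11 higher and 1 lower in Rescue-labelled arrays, and at 8h2h against 8h, 2 and 1 were called lower.

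KO-labelled 8h2h replicate b, which did not enter the means, was compared with KO-labelled 8h replicate b of the same slide. That 8h array did enter the choice, and members were chosen for high 8h values, so lower values against it are partly built in and the counts are a description only. It was lower for 94 of the 110 members, against 63.2% of all 15976 genes. By at least 0.8 it was lower for 82 members, against 6.50% of all genes. The median difference was -1.55 over the members and -0.30 over all genes, and it was -1.44 and -1.65 over the members on slides a and c, which did enter. Among the 91 members read on both other KO-labelled 8h2h arrays, 86 were lower, with a median of -1.59. Among the 16 members read on neither, 7 were lower, and the median was 0.25. Nppb was lower by 4.53 (difference -4.53) and Bmp4 by 3.69 (difference -3.69), whereas Areg stood 1.09 above its 8h level. The array's background was high throughout, and its part in these values was not tested. It is 1 array and shows no spread.

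**Figure D5:**
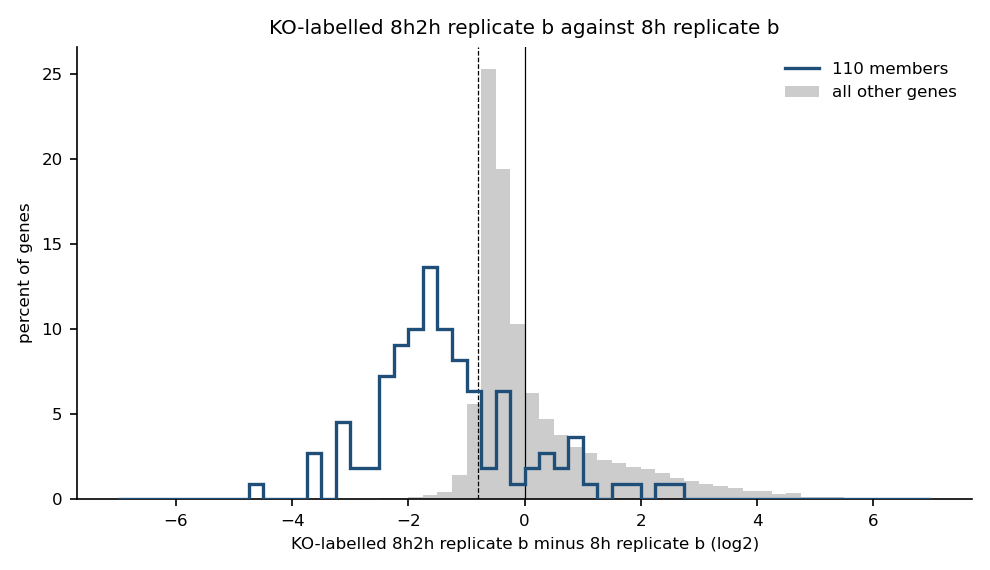
Distribution of the difference between KO-labelled 8h2h replicate b and KO-labelled 8h replicate b (x axis, log2, bins of 0.25) as percent of genes (y axis), for the 110 members (line) and all other genes (grey). The dashed line marks -0.8; 82 members lie below it, and the grey distribution peaks between that line and 0, with its longer tail to the right.

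The members had 29 other probes, of which 23, for 19 members, were read on all 6 arrays titled 8h, a condition that itself favours probes with a high 8h signal. All 4 changes had the members' direction in 22 of these, and 16 met the thresholds. The exception was a probe of Uncx, with a change of -0.02 between 8h and 0h in Rescue-labelled arrays. Of the 6 probes not so read, 4 went against the members in at least 1 change. The other Plau probe had 8h minus 0h changes of -0.56 in KO-labelled arrays and 3.69 in Rescue-labelled arrays. The other Sema6d probes had -0.13 and -0.53 in KO-labelled arrays and 1.37 and -0.59 in Rescue-labelled arrays, and that of Gm10375 had -0.19 and -0.31. The members spanned a median of 10673 bases from the start to the end of the gene, against 20625 bases for the 13490 other genes read at 8h (RefSeq, GRCm38.p6), with middle ranges of 4150 to 29819 and 8399 to 49090 bases. Besides Ereg and Areg, Soga3 and 9330159F19Rik, on chromosome 10, were the other pair of members that lie next to each other.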

How the data were processed

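Gene expression was measured on 18 one-colour Agilent arrays. The deposited scanner files held each probe's processed intensity, background-subtracted and spatially detrended by Feature Extraction 12.0.1.1, per the file headers, and deposited flags, other values of 0 or 1, for a signal well above background. The labels name Cy5, while the headers show 1 green channel. The level is log2 of the intensity minus the array's 75th percentile, from each gene's brightest probe with a RefSeq match. Limma 3.58.1 (R 4.3.3) was fitted with 6 group means to 17 arrays and 15976 genes, with Benjamini-Hochberg adjustment over all genes and calls at an adjusted p below 0.05. A group with no array well above background gives a bound only. KO-labelled 8h2h replicate b was left out, as the choice of members did.

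The letters a, b and c mark slides, each with all 6 groups. Of 40 same-slide pairs of arrays, 27 had deviations from the group means that correlated above 0.1 (median r = 0.178), against a median of -0.0932 over 80 pairs of different slides. The slide as a block was an alternative, as were other background correction, scaling, filters, thresholds, probe averaging and leaving out each replicate. The members, lists and tests were chosen with earlier results of these data known, and the roles by hand after the members were known. Named genes were those with the largest 8h increase, 8h2h decrease, remaining increase or line differences, those nearest the thresholds, and members in the 6 lists; genes outside this rule were named after their values were seen.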

Additional observations from a re-analysis of the deposited data

Results flagged for a closer look

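The change from 0h to 8h differed between the lines, by limma's test of the difference itself (adjusted p below 0.05), for 18 members read in all 4 groups concerned. Values are the KO-labelled change minus the Rescue-labelled change on the log2 scale. The same 8h increases chose the members, so the list is a description. The increase was smaller in KO-labelled arrays for Gm13889 (-3.70), which led the list, Pdyn (-2.45), Il11 (-1.81), Nab2 (-1.30), Maff (-1.04), Hs3st3b1 (-1.01), Lpo (-0.99), Tlnrd1 (-0.75) and Socs5 (-0.56). It was larger in KO-labelled arrays for Skor1 (2.86), Sp5 (2.43), Esam (2.33), Cdc42ep1 (2.16), Pou3f1 (1.93), Gbx2 (1.58), Cldn5 (1.15), Cebpd (1.09) and Spn (1.04).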

How the results depend on the processing

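The rule found 110 members. It found 56 with normexp background correction, 67 with the filter over all 17 arrays, 53 at stricter thresholds and 172 at looser ones, and 100 to 114 when 1 replicate was left out. Members called between the lines at 0h numbered 56, against 36 with normexp, 33 without scaling, 33 with the filter over all 17 arrays and 32 when only the groups compared were fitted (44 to 55 leaving out 1 replicate). At 8h they numbered 52, against 26 without scaling, 14 higher and 12 lower in KO-labelled arrays, and 33 with that filter (36 to 56). At 8h2h they numbered 50, against 25 without scaling and 33 with that filter (33 to 53, with 33 without KO-labelled 8h2h replicate a). That filter leaves 66 members to test. Of all genes, 26%, 29% and 26.9% were called at 0h, 8h and 8h2h, against 9.51%, 11.1% and 9.71% without scaling. With the filter over all 17 arrays these shares were 26.3%, 29.6% and 27.3%. The share at 0h was 20.3% with normexp and 12.4% with only the groups compared. For the 8h increase, 28 line differences became 15 with all 18 arrays, 9 without scaling, 18 without the filter on dim probes, 14 with the filter over all 17 arrays and 18 with only the groups compared. Leaving out 1 replicate gave 16 to 29: 16 without KO-labelled 8h replicate a or Rescue-labelled 8h replicate b, and 18 without KO-labelled 0h replicate a or Rescue-labelled 8h replicate a or c. For the 8h2h decrease the count of 0 became 1 with the replicate block, 1 with only the groups compared (Cebpd), and 0 to 1 leaving out 1 replicate (Thbd, without KO-labelled 0h replicate c). For the 8h increase, 4.78% of all genes were called, against 1.94% with all 18 arrays, 0.945% without scaling and 2.34% without the filter on dim probes. That share was 4.38% with the filter over all 17 arrays and 2.75% with only the groups compared. The causes were not tested.

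At 0h the sign of 4 differences in members read in neither line reversed: Barhl2 was -0.23 with normexp and -0.10 with quantile normalization, Ereg -0.025 and -0.0123, and with normexp Gpr142 was -0.13 and Sost -0.0816. Without scaling, the median of all genes between 8h and 0h was 0.28 in KO-labelled and 0.29 in Rescue-labelled arrays, and higher calls made up 76.2% and 78.3% of calls, against 48.9% and 46.2% with scaling. Of 118 named differences, 47 kept their direction and stayed past the threshold under every setting that gave them a value; the number was 67 without scaling, 92 with all 18 arrays, 93 with normexp, 93 with only the groups compared and 117 with the replicate block. Signals near background limit the members unread at 0h or 8h2h.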
